A study of Mus musculus with 18 samples.

Results

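The genes described here encode subunits of the 5 complexes of oxidative phosphorylation and are carried in the nuclear genome. They were measured in lateral septum (LS) from outbred hsd:ICR female mice about 70 days old, with 1 Affymetrix Mouse Gene 1.0 ST array for each mouse. A gene was a member if a probeset of its own, meaning one annotated to that gene alone, had a symbol beginning with Nduf (without the Ndufaf assembly factors and Ndufa4l2), a symbol from Sdha to Sdhd, one beginning with Uqcr, Cyc1, a symbol from Cox4 to Cox8 with a subunit letter, or one beginning with Atp5. The brightest such probeset over the 18 arrays stood for the gene. The rule gave 82 genes of the 19938 that have a probeset of their own, namely 35 of complex I, 4 of complex II, 9 of complex III, 17 of complex IV and 17 of complex V. Subunits encoded by mitochondrial DNA were not analysed here.

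There were 6 virgin mice, 6 lactating maternal mice and 6 mice whose pups had been removed. Litters were set to 11 pups, and tissue of mothers in both postpartum groups was taken on Day 7 after birth. The pups removed group lost its litter on Day 2, so both groups had gone through pregnancy and birth and only the maternal group was still nursing. The virgin and pups removed mice used were in diestrus. Each sample was micropunched tissue, which holds every cell type of the region and any neighbouring tissue caught by the punch. A lower signal from fewer cells of a type and one from less RNA per cell cannot be told apart in such samples. RNA was prepared in sets of 3 with 1 mouse of each group, and the labels do not say which mice shared a set. With 1 array per mouse, p-values measure the spread between mice.

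In oxidative phosphorylation, complexes I (NADH dehydrogenase) and II (succinate dehydrogenase) pass electrons to ubiquinone, complex III (cytochrome bc1) hands them to cytochrome c, and complex IV (cytochrome c oxidase) reduces oxygen. Complexes I, III and IV pump protons out of the mitochondrial matrix, and complex V (ATP synthase) makes ATP as the protons return. Neurons draw most of their ATP from this pathway, which pays largely for ion pumping and synaptic transmission.

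Expression of these genes was nearly level across the 3 groups, and 0 of the 82 passed the test in any comparison. A gene was called when the limma false discovery rate (FDR) adjusted p over all 35557 probesets was under 0.25. Of all probesets, 1.65% were called between maternal and virgin mice, 0.0309% between maternal and pups removed mice and 0.208% between pups removed and virgin mice. The smallest limma adjusted p among the 82 genes was 0.351, 0.485 and 0.588 in those comparisons. At an unadjusted limma p under 0.05 there were 6, 3 and 1 members, or 7.32%, 3.66% and 1.22% of them, against 10.4%, 8.96% and 8.13% of all probesets. For most members the 95% interval of the difference lay within 0.2 on either side of 0 on the log2 scale, a fold between 0.871 and 1.149. This held for 72 of 82 genes between maternal and virgin, 74 of 82 between maternal and pups removed, and 72 of 82 between pups removed and virgin mice. It also held for 2513, 2582 and 2679 of the 2931 probesets of 1 gene with a mean log2 signal of at least 10. Among members at that level it held for 47, 49 and 48 of 51. Such intervals were thus common at that level and not particular to these genes.

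**Figure D1:**
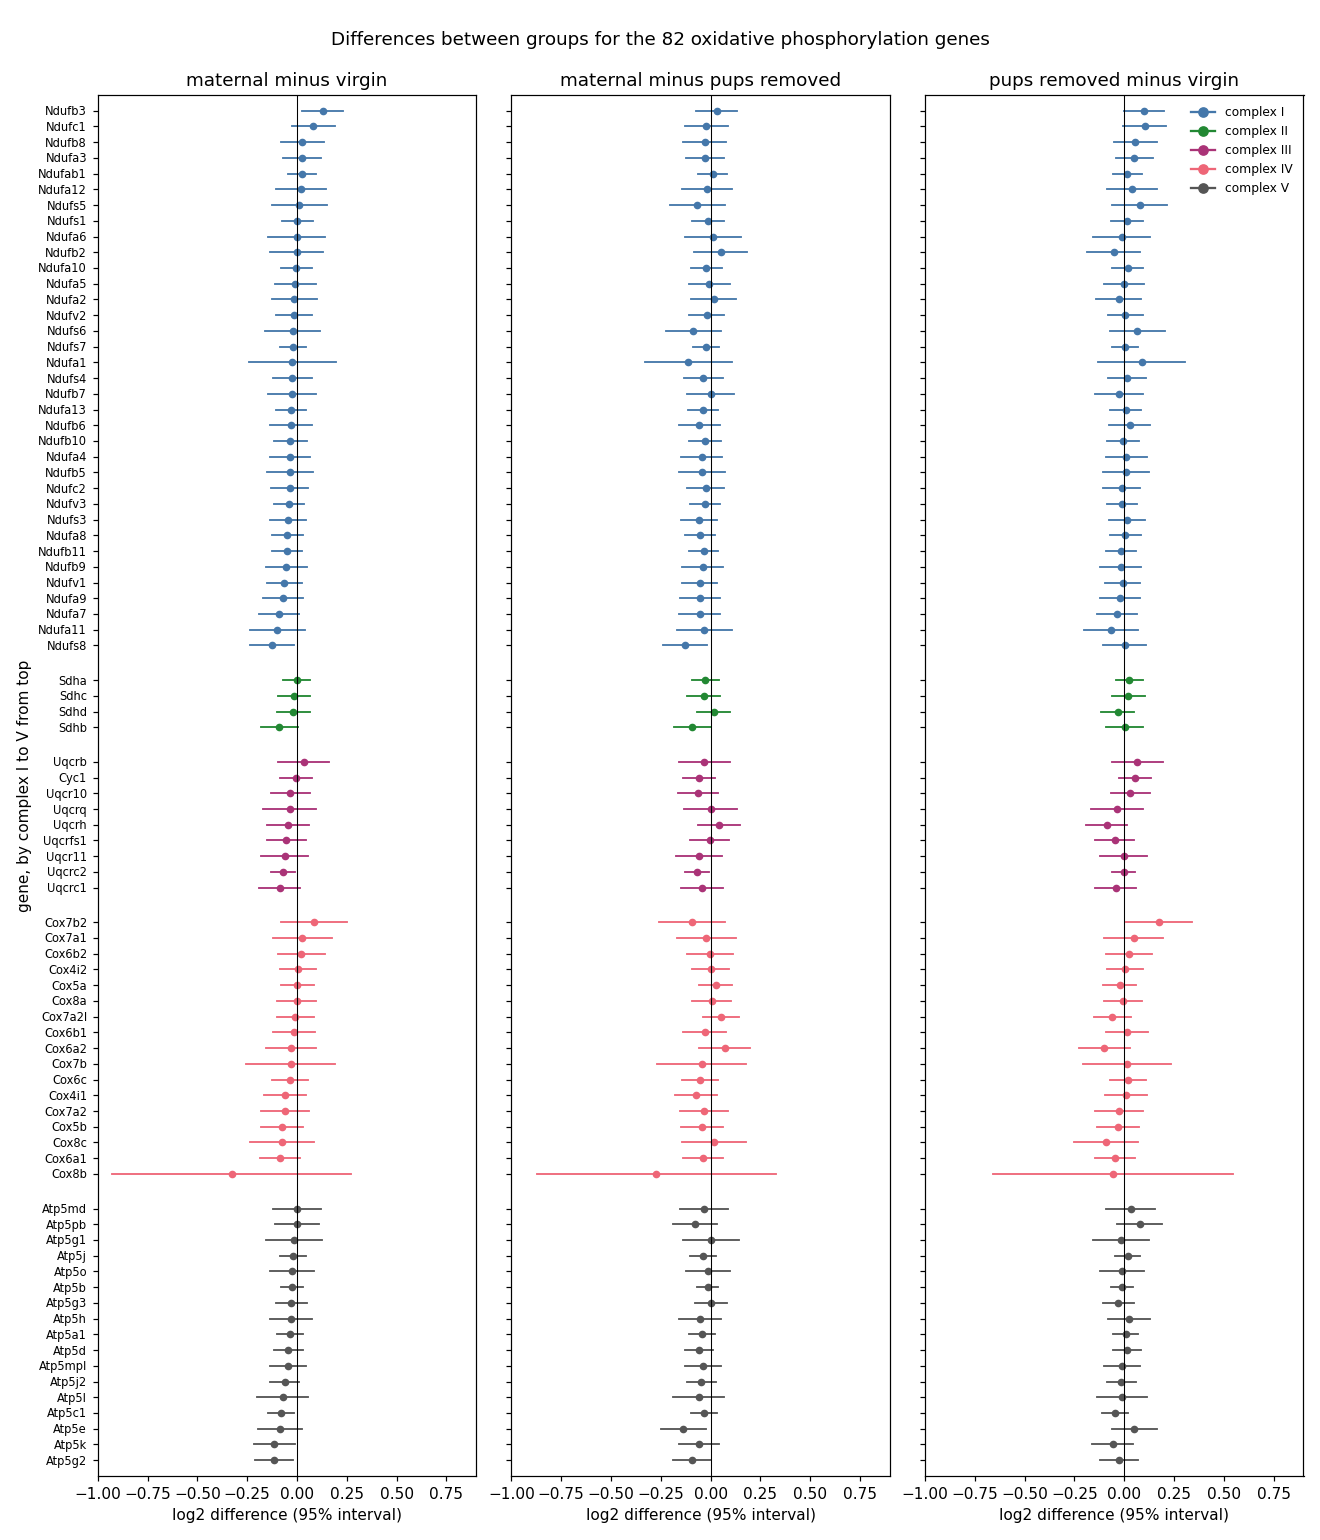
Log2 difference between group means (point) with its 95% limma interval (line) for each of the 82 genes, ordered within complex I to V by the maternal minus virgin difference, in the 3 comparisons. Most points of the maternal minus virgin and maternal minus pups removed panels lie just left of 0, intervals are narrow for nearly all genes, and that of Cox8b is by far the widest.

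Small differences nevertheless ran mostly one way in maternal mice. Against virgin mice, 66 members had a lower maternal mean, 14 a higher one and 2 the same mean, with a median log2 difference of -0.03. This was 80.5% lower, compared with 43.4% of all probesets (median 0.012) and 49.8% of the 21789 probesets of 1 gene. Of the 51 members with a mean log2 signal of at least 10, 86.3% were lower (median -0.035). Of the 2931 probesets of 1 gene at that level, 60.6% were lower (median -0.015). Against pups removed mice 65 members were lower and 13 higher in maternal mice, with a median of -0.035, beside 51.7% of all probesets and 53.6% of those of 1 gene. Of the 51 bright members 88.2% were lower, beside 62.5% of the bright probesets. The comparisons share the maternal arrays. Without virgin replicate 2, the virgin array with the highest signal of these genes, 50 members were lower in maternal than virgin mice and the median was -0.0065.

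The pups removed and virgin means were split evenly, with 42 members higher and 40 lower in pups removed mice and a median of 0.0017, beside 42.3% of all probesets lower. Under centring of each array on its own median, 66 of the 82 were lower in pups removed mice (median -0.028), and under quantile normalization 49 were lower (median -0.01), so no direction can be given here. The maternal medians stayed below 0 under these scalings. They were -0.026 by quantile normalization and -0.047 by median centring against virgin mice, and -0.021 and -0.022 against pups removed mice.

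The 82 genes moved together from mouse to mouse, and most of all among virgin mice. The mean log2 signal over the members was 10.42 ± 0.076 in virgin (SD, n = 6; 10.35 to 10.53), 10.39 ± 0.034 in maternal (10.35 to 10.43) and 10.42 ± 0.017 in pups removed mice (10.40 to 10.44). The groups overlapped, and virgin mice held both the highest and the lowest array of the study. In virgin replicate 2, 78 of the 82 genes were above their own mean over 18 arrays, and in replicate 4, 72 were. In virgin replicates 1 and 5, 65 and 66 genes were below it.

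**Figure D2:**
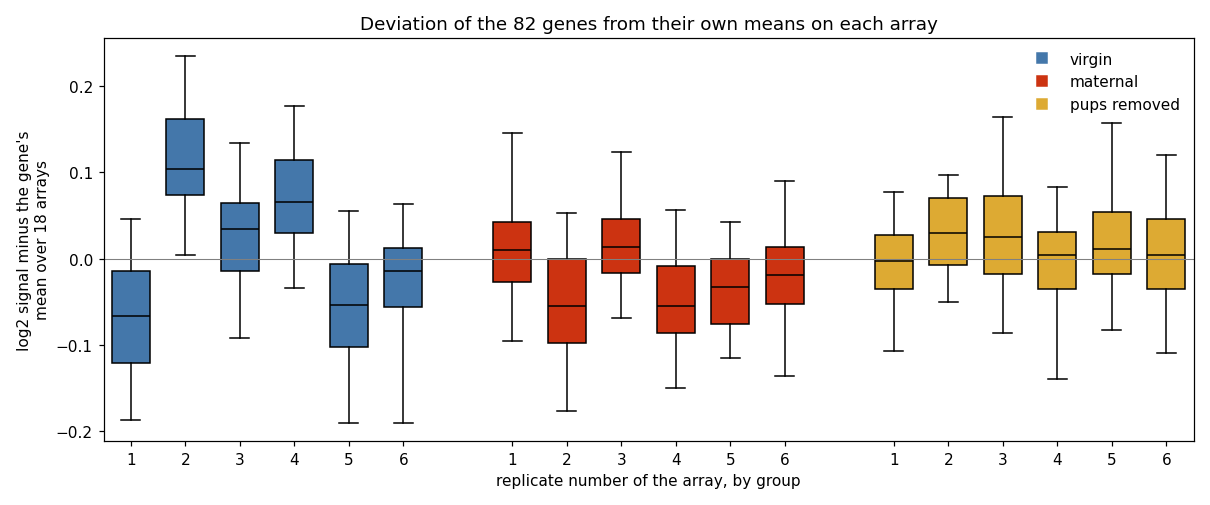
Log2 signal of each of the 82 genes minus its own mean over 18 arrays, as a box per array (line: median; box: quartiles; whiskers: 5th to 95th percentile), by group and replicate number. Virgin replicates 2 and 4 sit above 0 and virgin replicates 1 and 5 below it, and the medians of pups removed arrays stay close to 0.

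**Figure D3:**
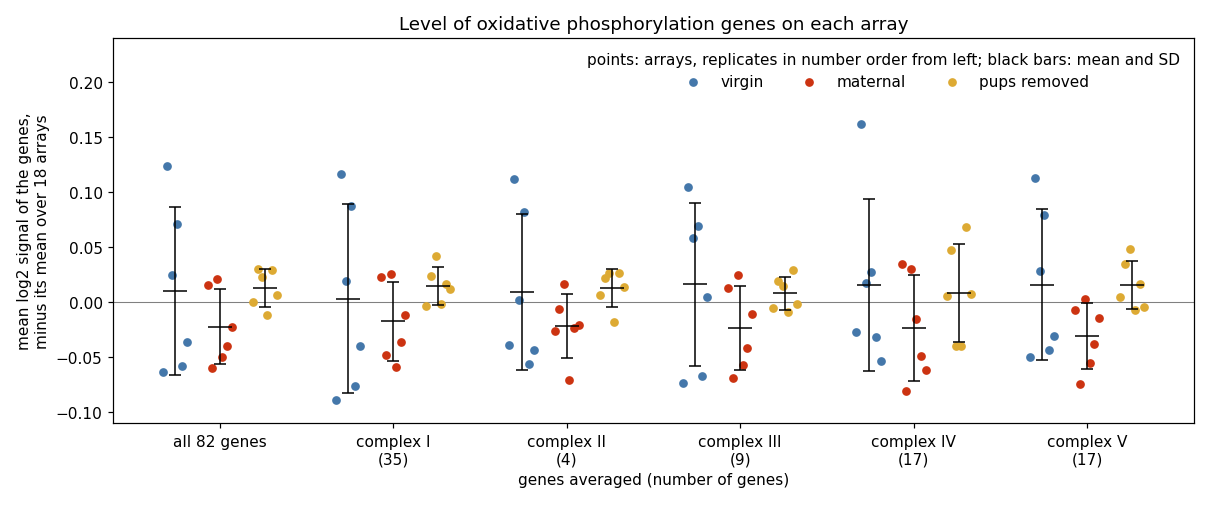
Mean log2 signal of all 82 genes and of each complex on each array (point), minus its mean over 18 arrays, with the group mean and SD (black bars). Virgin replicate 2 is the highest array in all 5 complexes, and the maternal mean is the lowest of the 3 group means in each.

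The upper part of this order of the virgin mice was shared by all 5 complexes. From the top down, virgin replicates 2, 4 and 3 were the highest virgin arrays in each complex. The order of replicates 1, 5 and 6 below them differed between complexes. The SD between virgin arrays was 0.086, 0.071, 0.074, 0.078 and 0.069 for complexes I to V, and that between pups removed arrays was 0.017, 0.017, 0.015, 0.044 and 0.022. The same spread was present in cytosolic ribosomal protein genes, where the SD was 0.063 in virgin and 0.031 in pups removed mice, and in mitochondrial ribosomal protein genes, where it was 0.058 and 0.027. The mean of the 2931 probesets of 1 gene with a mean log2 signal of at least 10 also varied more in virgin mice. Its SD was 0.030 in virgin and 0.014 in pups removed mice, and virgin replicates 2, 3 and 4 were its highest arrays. The spread of the 82-gene mean was not removed by scaling. Its SD in virgin mice was 0.064 after quantile normalization and 0.10 after median centring, where that of the bright probesets was 0.0080 and 0.062. Medians of whole arrays were 7.61, 7.61 and 7.62 in virgin replicates 2, 3 and 4 and 7.65 to 7.70 in the other 15 arrays. These 3 virgin arrays also had the largest SD over the whole array, at 2.06, 2.05 and 2.05 compared with 2.00 to 2.03. The part of array quality or dissection in this spread was not tested.

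The promoters of 4 members are shown because each holds the same perfect site for nuclear respiratory factor 1 (NRF1), a transcription factor known for driving respiratory chain genes. The windows are 60 bases 5′ to 3′ on the strand of the gene, upstream of its start, from RefSeq on GRCm38.p6, and capitals mark the motif, a palindrome made of GCGCA followed by its reverse complement.
Atp5g2, chr15:102671055-102671114, minus strand: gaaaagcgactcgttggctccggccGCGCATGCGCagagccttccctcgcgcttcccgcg
Atp5k, chr5:108434415-108434474, minus strand: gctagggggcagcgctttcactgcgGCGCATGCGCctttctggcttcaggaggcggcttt
Cox6a1, chr5:115349086-115349145, minus strand: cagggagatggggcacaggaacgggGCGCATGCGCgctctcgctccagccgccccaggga
Ndufa11, chr17:56717677-56717736, plus strand: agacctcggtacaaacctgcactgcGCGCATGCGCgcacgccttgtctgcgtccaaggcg

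Of the 67 members with a promoter in the reference (250 bases before to 50 after the start, both strands searched), 5 held the NRF1 motif, or 7.46%, compared with 1.07% of 27025 genes. The fifth, Uqcrc1, has it after the start. The motif CCGGAAG, bound by ETS factors such as GABPA, was in 25.4% of member promoters and 9.93% of all, and CCAAT in 43.3% and 41.1%. A match is a description of the letters and not of binding. The 5 members with the NRF1 motif differed by -0.085 to -0.12 between maternal and virgin mice (median -0.098), and the 62 without it had a median of -0.026. Between maternal and pups removed mice the medians were -0.043 and -0.033. Between pups removed and virgin mice they were -0.047 and 0.0042, with all 5 lower in pups removed mice. In the deposited values both postpartum groups thus had lower means of these 5 than virgin mice. The split was not examined under other scalings, which changed the direction of the members between pups removed and virgin mice. Over all measured genes with a promoter, the 252 that held the motif had a median of -0.0058 between maternal and virgin mice and the 15311 without it a median of -0.0017. Between maternal and pups removed mice those medians were -0.021 and -0.005, and between pups removed and virgin mice 0.011 and 0.0033. Among genes with a mean log2 signal of at least 10 they were -0.027 and -0.017 between maternal and virgin mice. At that level they were -0.0083 and -0.012 between maternal and pups removed mice, and -0.013 and -0.0033 between pups removed and virgin mice. The Ndufa11 probeset used is numbered among those of chromosome 16 and not 17, where the gene lies. Its probeset numbered with chromosome 17 differed by -0.053 between maternal and virgin mice and by -0.005 between pups removed and virgin mice. The first value lies outside the range given above for the 5 members. Between maternal and virgin mice, the 17 members with the ETS motif had a median of -0.045 and the 50 without it -0.026. Over all measured genes with a promoter, these ETS medians were -0.013 (2120 genes) and 0.0017 (13443 genes). For CCAAT the member medians in that comparison were -0.0283 and -0.0275. A lower median with the motif was thus not particular to NRF1. No test was run on these splits of the members. Nrf1 itself differed by 0.017 between maternal and virgin mice (SE 0.043, limma adjusted p = 0.928).

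In complex I, 27 of 35 members were lower and 8 higher in maternal than virgin mice (median -0.023), and 29 were lower and 5 higher in maternal than pups removed mice (median -0.03). The member with the smallest p ran against this. Ndufb3, an accessory subunit of the membrane arm, had values of 8.27, 8.41 and 8.47 (lowest, median and highest log2 signal) in virgin mice, 8.42, 8.53 and 8.61 in maternal mice and 8.39, 8.47 and 8.63 in pups removed mice. All 6 maternal and all 6 pups removed mice lay above the virgin mean, although the ranges overlapped. The difference was 0.13 from virgin to maternal mice (SE 0.05, limma adjusted p = 0.351) and 0.098 from virgin to pups removed mice (SE 0.05, limma adjusted p = 0.628). Ndufc1, another accessory subunit, had a like pattern, at 0.082 and 0.10 above virgin mice.

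Ndufs8, a core subunit that carries iron-sulphur clusters toward the ubiquinone site, had the largest negative difference of the complex. Its values were 10.93, 11.02 and 11.23 in virgin mice, 10.82, 10.89 and 11.11 in maternal mice and 11.02, 11.04 and 11.07 in pups removed mice. Maternal replicate 1 held the highest maternal value, and the other 5 maternal mice lay below every pups removed mouse. The maternal mean differed by -0.13 from both virgin (SE 0.05, limma adjusted p = 0.416) and pups removed mice (SE 0.05, limma adjusted p = 0.506). Without maternal replicate 1, Ndufs8 was the single member to pass, at -0.16 against virgin mice (limma adjusted p = 0.195). In that fit 946 of all 35557 probesets were called, compared with 585 with all arrays.

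The other catalytic subunits of complex I were close to level. Ndufv1, which binds NADH and FMN, differed by -0.063 between maternal and virgin mice (SE 0.042), while Ndufs1, which passes the electrons on through iron-sulphur clusters, differed by 0.0017 (SE 0.038). Ndufs7, which carries the last cluster before ubiquinone, differed by -0.022 (SE 0.031), and Ndufs4, an accessory subunit whose loss in mice models Leigh syndrome, by -0.023 (SE 0.046). Ndufab1, the mitochondrial acyl carrier protein, differed by 0.025 (SE 0.034). Ndufa4, named for complex I but now known as a subunit of complex IV, differed by -0.035 (SE 0.049). In this comparison the limma adjusted p of these 6 genes lay at 0.624 or above. Maternal replicate 4 was low for Ndufa4, at 10.08 compared with 10.23 to 10.3 in the other maternal mice, and maternal replicate 3 was high for Ndufab1, at 10.13 compared with 9.98 to 10.02.

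In complex II all 4 genes had maternal means below the virgin ones, by -0.0017 to -0.09. Sdhb, the iron-sulphur subunit, had values of 10.12, 10.19 and 10.35 in virgin mice, 10.08, 10.13 and 10.20 in maternal mice and 10.16, 10.22 and 10.30 in pups removed mice. Every maternal mouse lay below the mean of both other groups, with overlapping ranges. The difference was -0.09 from virgin (SE 0.04, limma adjusted p = 0.496) and from pups removed mice (SE 0.04, limma adjusted p = 0.566). Sdha, the flavoprotein that oxidizes succinate, differed by -0.0017 and -0.027, with 95% intervals within 0.1 of 0 in all 3 comparisons. The membrane anchors Sdhc and Sdhd differed by -0.015 and -0.018 from virgin mice.

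In complex III, 8 of 9 members were lower in maternal than virgin mice (median -0.045) and 7 of 9 were lower than in pups removed mice (median -0.043). Uqcrc2, a core protein of the matrix side, was among the least variable members. Its values were 11.69, 11.73 and 11.78 in virgin mice, 11.60, 11.66 and 11.71 in maternal mice and 11.69, 11.72 and 11.77 in pups removed mice. Each of the 6 maternal mice lay below the mean of both other groups, and the ranges met between 11.69 and 11.71. The difference was -0.07 from virgin (SE 0.03, limma adjusted p = 0.4) and -0.067 from pups removed mice (SE 0.03, limma adjusted p = 0.522). Its partner core protein Uqcrc1 differed by -0.087 from virgin mice (SE 0.05, limma adjusted p = 0.565), with all 6 maternal mice below the virgin mean. In pups removed mice Uqcrc1 was 11.18 in replicate 4 and 10.91 to 10.98 in the others.

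The other named subunits of complex III had small differences. Cyc1, cytochrome c1, differed by -0.005 from virgin and by -0.058 from pups removed mice, and Uqcrfs1, the Rieske iron-sulphur protein, by -0.053 and -0.005. Uqcrh, the hinge protein, differed by -0.045 from virgin mice and by 0.043 from pups removed mice. None passed, with limma adjusted p of 0.683 or above in the 3 comparisons. Maternal replicate 4 stood apart from the other maternal mice in Cyc1 (10.93, others 11.02 to 11.07) and in Uqcrfs1 (8.96, others 8.71 to 8.8), low in the former and high in the latter.

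In complex IV, 12 of 17 members were lower and 5 higher in maternal than virgin mice (median -0.03), and 11 were lower and 5 higher against pups removed mice (median -0.03). No member had an unadjusted p under 0.05 in either maternal comparison. The isoforms used in most tissues had small differences from virgin mice. Cox4i1, a regulatory subunit, differed by -0.062 (SE 0.05), Cox5a by 0.0017 (SE 0.04) and Cox5b by -0.073 (SE 0.05). Cox6a1 had all 6 maternal and all 6 pups removed mice below the virgin mean, with a maternal difference of -0.085 (SE 0.05, limma adjusted p = 0.561), while that of pups removed mice was -0.047 (SE 0.05, limma adjusted p = 0.859). Cox7a2l, which helps join complexes III and IV into supercomplexes, differed by -0.0083 from virgin and by 0.052 from pups removed mice. The probesets used for Cox5b and Cox7a2l are numbered among those of another chromosome. Those numbered with the gene's own chromosome differed from virgin mice by -0.038 for Cox5b and -0.057 for Cox7a2l. Against pups removed mice that of Cox7a2l differed by 0.03.

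Of the complex IV isoforms known from other tissues, none was called in any comparison. The differences of Cox4i2 (lung), Cox6a2 and Cox7a1 (heart and skeletal muscle), Cox6b2 and Cox8c (testis) between maternal and virgin mice lay between -0.077 and 0.027. Cox7b2, also best known from testis, had values of 6.33, 6.47 and 6.81 in virgin mice, 6.43, 6.65 and 6.71 in maternal mice and 6.50, 6.68 and 6.90 in pups removed mice. With 5 of 6 pups removed mice above the virgin mean it differed by 0.18 (SE 0.08, limma adjusted p = 0.588), the only member with an unadjusted p under 0.05 between pups removed and virgin mice. It had the lowest signal of the 82 probesets and was the one member below a mean log2 signal of 7.

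Cox8b, the heart and muscle isoform of subunit 8, varied more between mice of a group than any other member, with a pooled SD of 0.53 compared with a median of 0.081 over the 82 genes. Its values were 6.86, 7.71 and 8.82 in virgin mice, 7.18, 7.28 and 8.03 in maternal mice and 6.79, 7.85 and 8.33 in pups removed mice. The 3 ranges overlapped, and that of maternal mice lay inside both others. The difference of -0.33 between maternal and virgin mice had an SE of 0.29 (limma adjusted p = 0.732). It was -0.11 without virgin replicate 2.

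The level of Cox8b followed that of choroid plexus markers from array to array. The choroid plexus, which lies in the ventricles beside the LS and secretes cerebrospinal fluid, was represented by the mean of Ttr, Folr1, Kl, Kcnj13, Clic6 and Otx2. Over the 18 arrays Pearson's r with Cox8b was 0.89 and Spearman's rho 0.97 (two-sided permutation test with 100000 resamples, p = 1e-05 for each, the smallest they can give; adjusted p = 0.00014 over 14 cell type lists compared with Cox8b). Leaving out the 2 arrays farthest from the median of the list gave r = 0.87. Within groups r was 0.87 in virgin mice, 0.89 in maternal mice and 0.93 in pups removed mice (two-sided exact permutation test, p = 0.035, 0.0069 and 0.022, n = 6 each), and rho was 1.0, 0.94 and 0.71 (exact p = 0.0028, 0.017 and 0.14). The ependymal list had r = 0.72 with Cox8b, and the other 12 lists lay between -0.61 and 0.55. The other 81 members had r between -0.30 and 0.68 with the choroid plexus list (median 0.28), Ndufa1 being the highest. Cox8b was chosen for this after its values were seen.

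**Figure D4:**
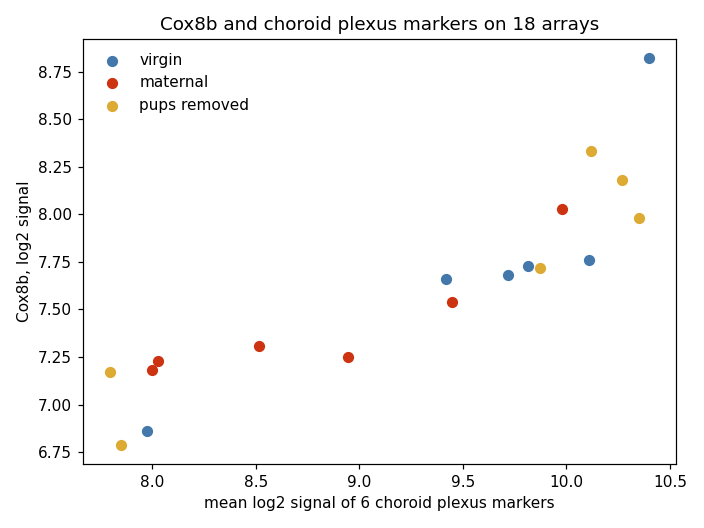
Log2 signal of Cox8b against the mean log2 signal of 6 choroid plexus markers on the 18 arrays, coloured by group. Points of all 3 groups lie along 1 rising band, with r = 0.89 over 18 arrays.

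In complex V no member had a higher mean in maternal than virgin mice. Of 17 genes 15 were lower and 2 equal (median -0.035), and against pups removed mice 15 were lower, 1 equal and 1 higher (median -0.042). The catalytic head was nearly level: Atp5a1 (subunit alpha) differed by -0.035 from virgin mice (SE 0.031) and Atp5b (subunit beta, the catalytic one) by -0.027 (SE 0.026).

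Atp5c1, the gamma subunit that forms the rotating stalk, had values of 11.28, 11.37 and 11.42 in virgin mice, 11.22, 11.29 and 11.32 in maternal mice and 11.27, 11.32 and 11.36 in pups removed mice. All 6 maternal mice lay below the virgin mean, and 2 virgin mice lay within the maternal range. The difference was -0.078 (SE 0.03, limma adjusted p = 0.385). Atp5e, the epsilon subunit of the same stalk, had values of 8.82, 8.96 and 9.16 in virgin mice, 8.78, 8.87 and 8.95 in maternal mice and 8.94, 8.99 and 9.14 in pups removed mice. Maternal and pups removed mice barely overlapped, with a difference of -0.14 (SE 0.05, limma adjusted p = 0.485), the smallest p of that comparison among the members.

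Atp5g2, one of 3 genes for the c subunit that makes up the rotor ring, had values of 11.24, 11.30 and 11.53 in virgin mice, 11.19, 11.24 and 11.29 in maternal mice and 11.28, 11.33 and 11.39 in pups removed mice. All maternal mice lay below the mean of each other group. The difference was -0.12 from virgin (SE 0.05, limma adjusted p = 0.375) and -0.092 from pups removed mice (SE 0.05, limma adjusted p = 0.585). Without virgin replicate 2 the first was -0.081. The brightest probeset of Atp5g2 is numbered among probesets of chromosome 7 and not of chromosome 15, where the gene lies. All 3 probesets of the gene gave like values against virgin mice, -0.12, -0.12 and -0.13, and the last is the one numbered with its own chromosome. Its unadjusted limma p was 0.0045, compared with 0.02 for the brightest. With probesets of the own chromosome 0 members were called. The genes for the same protein, Atp5g1 and Atp5g3, differed by -0.017 and -0.028 from virgin mice.

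Atp5k, subunit e, which supports dimers of ATP synthase in the inner membrane, had values of 8.81, 8.87 and 9.05 in virgin mice, 8.70, 8.78 and 8.87 in maternal mice and 8.67, 8.88 and 8.93 in pups removed mice. Each maternal mouse lay below the virgin mean. The difference was -0.12 from virgin (SE 0.05, limma adjusted p = 0.422) and -0.058 from pups removed mice (SE 0.05, limma adjusted p = 0.758).

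**Figure D5:**
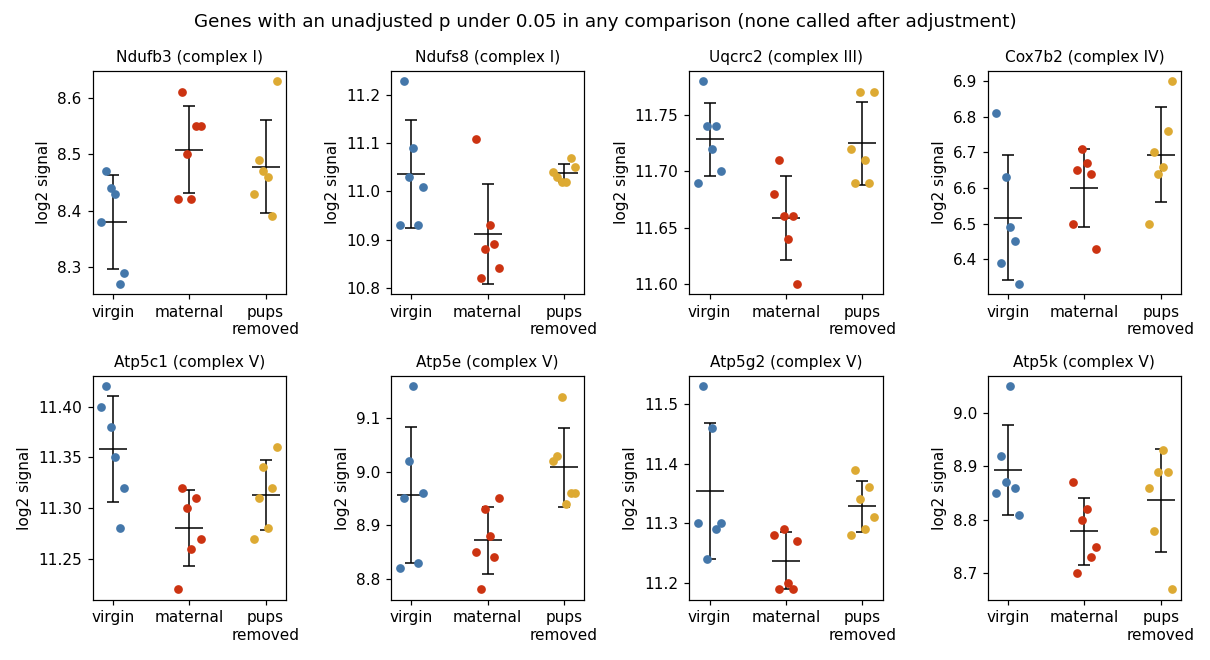
Log2 signal on each array (point) with the group mean and SD (black bars) for the 8 members with an unadjusted limma p under 0.05 in any comparison, none of which passed adjustment. In Uqcrc2, Atp5c1, Atp5g2 and Atp5k the maternal points are low against virgin ones and still overlap with them, and in Ndufb3 they are high.

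The groups overlapped for each of the 82 genes in each of the 3 comparisons, where 0.835%, 0.529% and 0.38% of all probesets did not overlap. For 17 members several probesets name the gene alone. Probesets of 1 gene had differences of opposite sign in 0 of the 17 between maternal and virgin mice, in 1 (Ndufab1) between maternal and pups removed mice and in 5 between pups removed and virgin mice, where a difference of 0 (as for a probeset of Atp5md and of Atp5pb in the first) counted as neither sign. For 10 members the brightest probeset is numbered among those of another chromosome. With the brightest probeset of the own chromosome in their place, 67 members were lower in maternal than virgin mice and the median stayed at -0.03. Probesets of the gene lists and cell type markers below were not examined for this.

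Genes that build or feed the complexes had differences of like size. No assembly factor passed, with 26 of 45 lower in maternal than virgin mice (median -0.013). Against pups removed mice 34 of 45 were lower (median -0.038), and 36 of 45 were higher in pups removed than virgin mice (median 0.02). Of all 35557 probesets 20196 were higher in pups removed than virgin mice (median 0.012), and median centring moved that median to -0.018. The assembly factors were not examined under other scalings, so no direction can be given for them between pups removed and virgin mice. Sco1, a copper chaperone of complex IV, differed by -0.087 between maternal and pups removed mice (SE 0.03, limma adjusted p = 0.485) and by 0.093 between pups removed and virgin mice (SE 0.03, limma adjusted p = 0.454). Of the electron carriers and coenzyme Q synthesis genes 11 of 16 were lower in maternal than virgin mice (median -0.024), with none called. Cycs, cytochrome c, differed by -0.038 (SE 0.066).

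The pyruvate dehydrogenase and TCA cycle list, which makes the NADH and succinate used by complexes I and II, had 16 of 18 members lower in maternal than virgin mice (median -0.04) and none called. Suclg2, a subunit of the GTP-forming succinyl-CoA ligase, was lowest at -0.19 (SE 0.08, limma adjusted p = 0.419), and at -0.30 from pups removed mice (SE 0.08, limma adjusted p = 0.31). Among carriers and exchangers 6 of 12 were lower, and Slc25a27, the brain uncoupling protein UCP4, differed by 0.11 (SE 0.04, limma adjusted p = 0.285). In glycolysis 14 of 18 were lower (median -0.039), and Slc16a1, a lactate and pyruvate transporter, differed by -0.38 between maternal and pups removed mice (SE 0.09, limma adjusted p = 0.287). None of these passed.

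Of regulators of mitochondrial biogenesis, 14 of 22 were lower in maternal than virgin mice (median -0.019), with none called. Ppargc1a, the coactivator PGC-1 alpha, differed by 0.0067 (SE 0.037) and Tfam, which packages and transcribes mitochondrial DNA, by -0.093 (SE 0.06) and by -0.15 from pups removed mice (SE 0.06, limma adjusted p = 0.505). Mitochondrial ribosomal proteins had 57 of 77 lower than in virgin mice (median -0.03) with none called. Cytosolic ribosomal proteins, part of the general translation machinery, had 39 of 54 lower (median -0.032), and 2 of these fell in maternal mice: Rplp0 by 0.15 (SE 0.04, limma adjusted p = 0.18) and Rpl7 by 0.23 (SE 0.06, limma adjusted p = 0.198). Among antioxidant genes 7 of 11 were lower (median -0.032) and Cat, catalase, fell by 0.18 (SE 0.05, limma adjusted p = 0.23). The count of called probesets in this comparison moved with single arrays, from 585 to 1639 without virgin replicate 6, 76 without virgin replicate 2 and 10 without maternal replicate 5, and whether these 3 genes passed without those arrays was not tested.

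Markers of other cell types also differed in the maternal samples. All 8 measured markers of striatal medium spiny neurons, a cell type that borders the LS, had lower means in maternal than virgin mice (median -0.48), of which Adcy5 passed. Their mean log2 signal was 10.68 to 10.93 in virgin mice, 9.92 to 10.58 in maternal mice and 10.07 to 11.07 in pups removed mice, and their summed linear signal was 17135 to 20362, 10801 to 16181 and 11772 to 22133. All 6 choroid plexus markers were lower in maternal mice (median -0.63), none called, with summed signals of 1722 to 19420, 1696 to 15552 and 1469 to 18409. The median difference was -0.0058 over 6 general neuronal markers and -0.0067 over 9 lateral septal markers, which had mean log2 signals of 11.15, 11.16 and 11.11 in the 3 groups, with none called in either list. All 5 ependymal markers had lower means in maternal than virgin mice (median -0.29) and than pups removed mice (median -0.31), none called, with summed signals of 1471 to 2027, 1247 to 1835 and 1381 to 2127 in virgin, maternal and pups removed arrays. Of 6 markers of stem cells and neuroblasts, 5 were lower in maternal than virgin mice (3 called) and 1 was higher. Of 6 microglia markers 4 were lower (2 called) and 2 higher. Of 5 endothelial markers 3 were higher (1 called) and 2 lower. Over all probesets 1.65% were called in that comparison. The drop of that comparison's calls to 76 without virgin replicate 2 and to 10 without maternal replicate 5 applies to these markers and to Adcy5 too. The part of these cell types in the differences of the respiratory genes was not tested.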

How the data were processed

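The authors deposited log2 signals of 18 arrays, 1 per mouse, summarized and normalized with PLIER after GC bin background correction in Affymetrix Power Tools 1.12.0. The method that set arrays on a common scale is not named further in the sources used here. The values (2.33 to 14.72) were used as deposited. RNA had been extracted from 8 mice per group, of which 6 were arrayed.

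All 35557 probesets entered 1 limma fit (version 3.58.1, R 4.3.3) of the 3 groups, with Benjamini-Hochberg adjustment over all of them and a threshold of 0.25. The fit was tested on simulated data with independent noise for each probeset, whereas the members moved together by array. That test therefore does not show how often small shared differences would be called. The members, the gene lists and the rule for named genes (smallest p in each direction and complex, catalytic subunits, isoforms of other tissues, and called or leading genes of each list) were chosen with earlier results of these data known. Promoters came from RefSeq.

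Alternatives were a replicate block, quantile normalization, median centring, a signal filter, pairwise fits, a robust trended prior, the mean over probesets, a stricter threshold and leaving out each array. The choice of probesets on the gene's own chromosome was added after seeing the data. Precision is limited by 6 arrays per group.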

Additional observations from a re-analysis of the deposited data

Results flagged for a closer look

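In 8 of the 168 sets of 6 arrays examined for single genes and complex means, 1 array stood far from the other 5 by Dixon's test. Chance flags about 1 set in 20.

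In maternal mice, replicate 4 was low for Ndufa4 (10.08, others 10.23 to 10.3) and Cyc1 (10.93, others 11.02 to 11.07) and high for Uqcrfs1 (8.96, others 8.71 to 8.8). Maternal replicate 3 was high for Ndufab1 (10.13, others 9.98 to 10.02). In pups removed mice, replicate 6 was high for Atp5d (12.92, others 12.78 to 12.83) and Ndufs7 (12.4, others 12.32 to 12.34), replicate 4 was high for Uqcrc1 (11.18, others 10.91 to 10.98), and replicate 3 was low for Ndufa3 (10.99, others 11.06 to 11.1).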

How the results depend on the processing

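With limma, 0 members were called in each comparison under each alternative, except that 1 (Ndufs8, -0.16, adjusted p = 0.195) passed between maternal and virgin mice without maternal replicate 1. That array held the highest maternal value of Ndufs8. Without it 946 of all 35557 probesets were called, compared with 585 with all arrays. Leaving out 1 array gave 0 to 1 called members between maternal and virgin mice and 0 in the other comparisons. Median differences then ran from -0.045 to -0.0065 (maternal minus virgin), -0.042 to -0.028 (maternal minus pups removed) and -0.012 to 0.025 (pups removed minus virgin). Centring moved the median of all probesets from 0.012 to -0.005 between maternal and virgin mice. Counts at an unadjusted p under 0.05 ran from 1 to 10, 0 to 5 and 0 to 3 over all alternatives.

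With the replicate number as a block, 0 members were called and the medians were -0.03, -0.035 and 0.0017. All-probeset calls were 356, 9 and 70, compared with 585, 11 and 74 without the block. Same-numbered arrays did not deviate together (residual correlation -0.248 to 0.0953 over 18 pairs, with 0 of 18 arrays closest to their own number). The numbers may not index the sets in which RNA was prepared, so an effect of those sets was not tested.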
